A study of Mus musculus with 9 samples.

Results

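This account describes the response of wild-type mouse neural crest cells to endothelin-1 (ET-1), gene by gene and by gene family. It covers the genes whose deposited FPKM (fragments per kilobase of transcript, scaled to sequencing depth, so a level per length) was at least 1 in the ET-1 group or in the phosphate-buffered saline (PBS) group. Rows in which both entries were whole numbers and the deposited p-value was exactly 1 were left out. These rules kept 15395 of the 33495 genes in the table, and these are called the tested genes. The ET-1 group held 3 wild-type C57BL/6 samples from embryos at E9.5, given ET-1 at 10 µM, and the PBS group held 3 wild-type C57BL/6 samples of the same stage given PBS. Heads were pinched off just above the first branchial arch and tails were removed, the explants rested in culture for 1 h, and treatment then lasted 12 to 15 h before genetically labelled crest cells were sorted. Another group, also with ET-1 at 10 µM, came from a neural crest conditional knockout of Mef2c (3 samples), and it is used here only for values set beside those of wild type. The labels name neither the driver of the genetic label nor whether a sample was 1 embryo or a pool. The table held 1 value per group, so no level or fold given here has a replicate error.

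The neural crest is a migratory population that leaves the dorsal neural tube and forms peripheral neurons, glia, pigment cells and much of the facial skeleton. In the pharyngeal arches the peptide ET-1, released by neighbouring cells, signals to crest cells through the endothelin A receptor, a G protein-coupled receptor. Its loss in mice turns lower jaw structures towards upper jaw identity, and MEF2C, a MADS-box transcription factor controlled by class II histone deacetylases, acts downstream of it in the arches. Endothelin B receptors, which bind ET-1 as well as ET-3, are used by the crest precursors of melanocytes and enteric neurons.

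With ET-1, 60 genes rose and 22 fell at an adjusted p under 0.05, after Benjamini-Hochberg adjustment, over the tested genes, of the p given in the authors' deposited table. Called rises were thus 0.390% of the tested genes, called falls 0.143% and both together 0.533%. The median log2 fold of all tested genes, taken of FPKM + 1, was 0.014, with the 10th and 90th percentiles at -0.30 and 0.32. Of the tested genes 8057 had the higher FPKM with ET-1 and 7338 the lower. These values are the background for the gene lists below. The rises had a median fold of 1.93, and 27 of them were at least 2-fold. The falls had a median ratio of 0.495, and 11 of them lay at a ratio of 0.5 or below. Among these were 7 clone-named models on chromosome 2, at ratios of 0.45 to 0.46. As described below, they are not independent falls, and they weigh on the count and median of the falls. Of the rises 55 and of the falls 9 carried a gene symbol, and the other 5 and 13 were models named after sequencing clones. The exact 95% counting intervals given with ratios below come from pooled reads inferred from FPKM, and they leave out the spread between embryos.

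**Figure D1:**
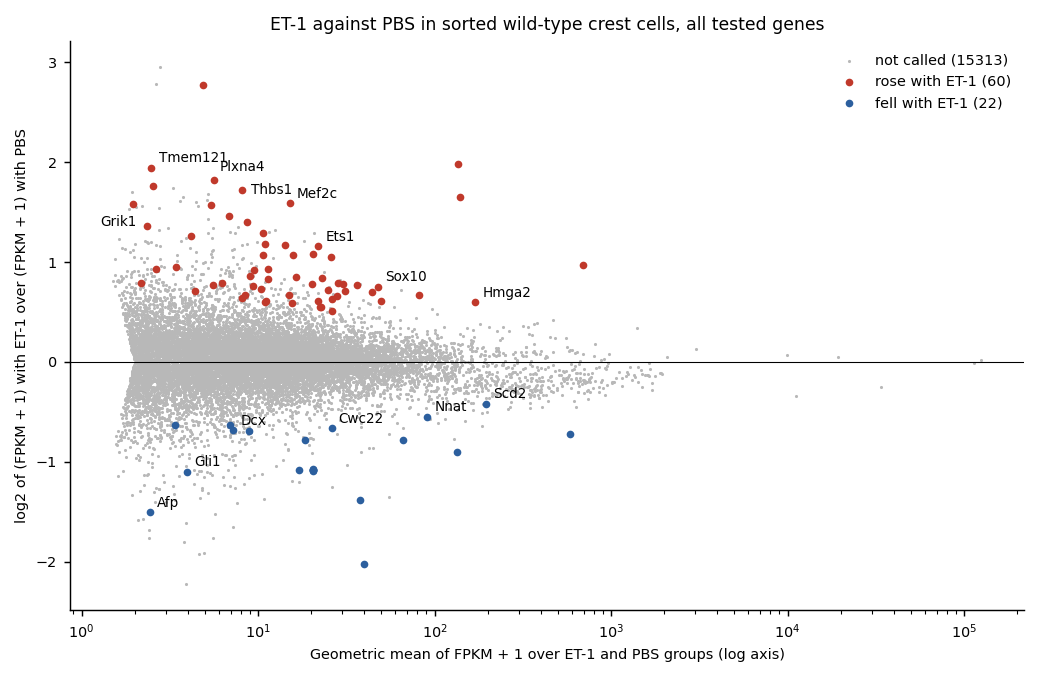
Each point is a tested gene, with the geometric mean of FPKM + 1 over both groups on a log x axis and the log2 fold, ET-1 over PBS, on the y axis. Red points are the 60 rises and blue points the 22 falls. Most genes lie close to the zero line, and the red points spread over low, middle and high levels, up to a log2 fold of 2.77.

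Pooled depth was 19801230 reads for the ET-1 group, 46930101 for the mutant and 21507319 for the PBS group. The crest label could be checked against 17 markers, of which 16 were tested, and their summed level was 416 FPKM with ET-1 and 312 FPKM with PBS. That sum includes 5 markers that were themselves called as risen, and 13 of the 16 were higher with ET-1. Markers of blood and yolk sac, endothelium, epithelium, muscle, macrophages and mesoderm were sparse in both groups. Summed levels with ET-1 and with PBS were 34.9 and 39.5 FPKM for 8 tested erythroid and yolk sac genes and 1.66 and 1.65 FPKM for 1 endothelial gene. They were 3.90 and 5.57 FPKM for 3 epithelial genes, 3.12 and 1.53 FPKM for 2 muscle genes and 5.54 and 5.70 FPKM for the macrophage gene Cd68. Among 17 mesodermal markers 5 were tested, with sums of 14.9 and 15.6 FPKM. Dorsal neural tube genes, the list used for neural tube cells, were well expressed. The 15 tested members summed to 347 FPKM with ET-1 and 344 FPKM with PBS. Wnt1 alone had 101 FPKM with ET-1 and 99.3 FPKM with PBS. The part of neural tube cells in the sort was not tested.

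Endothelin signalling genes themselves were not called. Ednra, the ET-1 receptor of arch crest, stood at 3.85 FPKM with ET-1 and 3.45 FPKM with PBS, and Ednrb, the receptor of the melanocyte and enteric lineages, at 74.7 FPKM with ET-1 and 62.7 FPKM with PBS. Ece1, which encodes the protease that releases mature endothelins, had 24.8 FPKM with ET-1 and 20.2 FPKM with PBS. Across the list of 6 tested endothelin ligands, receptors and enzymes the median log2 fold was 0.21, beside 0.014 for all tested genes. None of 25 tested genes for G protein alpha subunits, phospholipase C and RGS proteins was called (median 0.060). Within that list Rgs3 had 5.58 FPKM with ET-1 and 4.24 FPKM with PBS, and Rgs10 had 0.708 FPKM with ET-1 and 1.47 FPKM with PBS.

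Mef2c, on chromosome 13 from 83643194 to 83802927 in build mm9, was among the strongest rises, at 25.2 FPKM with ET-1 and 7.71 FPKM with PBS, a fold of 3.27 (interval 3.13 to 3.42) on 7938 and 2634 reads. It was the only called gene of 11 tested MEF2 factors, class IIa histone deacetylases and cofactors, whose median log2 fold was 0.20, with 10 of 11 values above 0. Mef2a and Mef2d, its relatives, had 16.7 and 16.2 FPKM with ET-1, against 15.4 and 13.3 FPKM with PBS. Hdac4, a class IIa deacetylase that represses MEF2 proteins, had 23.5 FPKM with ET-1 and 22.1 FPKM with PBS, so its log2 fold was 0.08. The value for Mef2c spans the whole gene model and does not separate its isoforms.

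Over all tested genes 0.390% rose and 0.143% fell. Of 26 tested immediate early transcription factor genes, 2 rose and 0 fell (median log2 fold 0.24, 20 higher and 6 lower). Both were orphan nuclear receptors of the NR4A family, which are switched on within minutes to hours by many stimuli. Nr4a1 had 10.4 FPKM with ET-1 and 3.15 FPKM with PBS, a fold of 3.32 (interval 2.78 to 3.97), and Nr4a3 had 7.26 FPKM with ET-1 and 3.77 FPKM with PBS, a fold of 1.92 (1.72 to 2.16). The family's other member, Nr4a2, had 3.04 FPKM with ET-1 and 1.70 FPKM with PBS and was not called. Classical serum-responsive genes were nearer to equal: Fos had 21.9 FPKM with ET-1 and 18.4 FPKM with PBS, and Egr1, the most abundant of the list, 90.7 FPKM with ET-1 and 66.5 FPKM with PBS, neither called. Klf4, a Krüppel-like factor, had the lowest log2 fold of the list, -0.81, at 1.45 FPKM with ET-1 and 3.31 FPKM with PBS, also not called. Nr4a2 and Fos were chosen for mention after their values were seen.

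Promoters of the called genes were read to show what these genes carry just before their starts, since members of 1 family and of the matricellular group below were called together. The windows hold the 250 bases before the RefSeq start, from assembly GRCm38.p6, and matched 38 of the 60 rises and 7 of the 22 falls. The motifs searched on both strands were the cAMP response half-element TGACG, the full element TGACGTCA, which contains the half-element on each strand, the AP-1 site TGANTCA, the TEAD site GGAATG, the MEF2 consensus and the CArG box of serum response factor. Capitals mark every match, and a match on the opposite strand shows the complement, such as CGTCA or CATTCC. Nr4a1 and Nr4a3 are printed because each holds 4 half-elements and 1 TEAD match, Cyr61 and Jub for their TEAD matches and Thbs2 and Filip1l for their MEF2 consensus matches.
Nr4a1 (chr15:101266596-101266845, + strand): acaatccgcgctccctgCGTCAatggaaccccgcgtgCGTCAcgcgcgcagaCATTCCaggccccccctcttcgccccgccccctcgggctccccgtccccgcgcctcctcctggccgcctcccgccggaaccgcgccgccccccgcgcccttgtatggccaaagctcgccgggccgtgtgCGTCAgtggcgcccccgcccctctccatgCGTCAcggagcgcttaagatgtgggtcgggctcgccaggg
Nr4a3 (chr4:48045055-48045304, + strand): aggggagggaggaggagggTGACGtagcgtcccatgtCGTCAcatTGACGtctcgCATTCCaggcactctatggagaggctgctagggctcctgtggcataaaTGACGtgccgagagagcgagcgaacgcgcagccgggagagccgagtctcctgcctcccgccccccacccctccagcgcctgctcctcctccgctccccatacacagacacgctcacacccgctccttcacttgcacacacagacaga
Cyr61 (chr3:145649986-145650235, - strand): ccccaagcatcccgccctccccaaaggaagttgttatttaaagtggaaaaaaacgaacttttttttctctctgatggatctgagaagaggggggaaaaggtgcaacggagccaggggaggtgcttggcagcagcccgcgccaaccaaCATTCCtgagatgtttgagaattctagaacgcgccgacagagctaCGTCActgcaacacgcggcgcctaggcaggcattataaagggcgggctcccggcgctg
Jub (chr14:54577662-54577911, - strand): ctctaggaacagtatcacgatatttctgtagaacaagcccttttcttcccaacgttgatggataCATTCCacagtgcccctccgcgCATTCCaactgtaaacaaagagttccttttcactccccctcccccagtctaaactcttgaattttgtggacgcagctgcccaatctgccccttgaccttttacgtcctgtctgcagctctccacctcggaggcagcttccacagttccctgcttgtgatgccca
Thbs2 (chr17:14694263-14694512, - strand): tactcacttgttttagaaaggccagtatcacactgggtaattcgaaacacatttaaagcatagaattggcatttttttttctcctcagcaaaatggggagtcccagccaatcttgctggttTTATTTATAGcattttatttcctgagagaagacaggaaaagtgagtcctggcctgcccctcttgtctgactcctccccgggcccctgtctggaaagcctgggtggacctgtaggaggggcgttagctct
Filip1l (chr16:57353027-57353276, + strand): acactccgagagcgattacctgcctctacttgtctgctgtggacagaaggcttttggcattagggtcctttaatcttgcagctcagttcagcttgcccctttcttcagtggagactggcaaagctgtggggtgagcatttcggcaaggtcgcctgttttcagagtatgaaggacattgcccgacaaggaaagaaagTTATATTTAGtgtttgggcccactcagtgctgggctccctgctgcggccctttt

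In Nr4a1 the half-elements started 233, 213, 69 and 40 bases before the gene's start, and in Nr4a3 they started 231, 213, 205 and 147 bases before it. Among the 38 matched rises, 14 (36.8%) held a half-element, beside 31.0% of 9636 matched tested genes and 17.8% of all 32851 promoters. The TEAD letters were found in 15 of the 38 (39.5%), beside 12.5% of the matched tested genes and 12.6% of all promoters. AP-1 letters were found in 4 (10.5%, beside 4.83% and 6.75%), the full cAMP element in 2 (5.26%, beside 3.14% and 1.55%), the MEF2 consensus in 3 (7.89%, beside 1.21% and 1.69%) and the CArG box in 1 (2.63%, beside 1.46% and 1.47%). The MEF2 matches were in Thbs2, Filip1l and Cp. In the authors' deposited table Thbs2 and Filip1l were not marked for a MEF2 motif, while Cp was. None of these 3 genes was marked there as dependent on Mef2c. With ET-1, Thbs2 had 21.7 FPKM in wild type and 26.8 FPKM in the mutant, Filip1l 14.2 and 14.8 FPKM, and Cp 4.63 and 5.27 FPKM. The motif shares describe letters in a window only. The windows of genes with several starts were read together, so genes with more starts had more chances of a match.

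Signalling by receptor kinases induces its own inhibitors. Of 20 tested genes for receptor tyrosine kinase and MAP kinase feedback 1 rose and 0 fell (median log2 fold 0.24, 15 higher and 5 lower). Spry4, a Sprouty inhibitor of the pathway, had 5.42 FPKM with ET-1 and 1.68 FPKM with PBS, a fold of 3.22 (interval 2.69 to 3.86). Dusp6, the phosphatase that inactivates ERK, had 31.6 FPKM with ET-1 and 18.4 FPKM with PBS and was not called. Outside the list, Gab1, a docking protein of receptor tyrosine kinases, rose 1.68-fold (1.59 to 1.79) to 31.0 FPKM with ET-1, against 18.4 FPKM with PBS. Map3k1, a kinase upstream of JNK and ERK, rose 1.55-fold (1.46 to 1.65) to 18.1 FPKM with ET-1, against 11.7 FPKM with PBS. Akap12, a scaffold that anchors protein kinases A and C, had 36.4 FPKM with ET-1 and 17.0 FPKM with PBS, a fold of 2.13. Dagla, the lipase that makes the main brain endocannabinoid from diacylglycerol, had 20.4 FPKM with ET-1 and 8.50 FPKM with PBS, a fold of 2.40 (2.23 to 2.58).

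Further receptors were called. Tgfbr2, the type II TGF-beta receptor, rose 2.85-fold (2.29 to 3.57) to 1.87 FPKM with ET-1, against 0.655 FPKM with PBS, the only call among 12 tested genes for TGF-beta ligands, receptors and latency proteins (median log2 fold 0.062). Npr3, the natriuretic peptide clearance receptor, had 11.1 FPKM with ET-1 and 6.16 FPKM with PBS. No call was made among 9 tested FGF ligands and receptors (median -0.013), 18 BMP genes (-0.060), 29 WNT genes (-0.0125), 14 retinoic acid genes (-0.0245) or 18 Eph receptors and ephrins (0.025). Fgfr2 had 37.5 FPKM with ET-1 and 37.9 FPKM with PBS. Fzd3, a WNT receptor, had 67.6 FPKM with ET-1 and 69.8 FPKM with PBS, and Id3, a BMP target, 81.7 FPKM with ET-1 and 90.6 FPKM with PBS.

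Crest transcription factors rose in part. Of 18 tested crest specifier genes 3 rose and 0 fell, beside 0.390% and 0.143% of all tested genes. Their median log2 fold was 0.087. Ets1, an ETS factor of cardiac crest, had 31.7 FPKM with ET-1 and 13.6 FPKM with PBS, a fold of 2.33 (interval 2.20 to 2.46). Sox10, which marks migrating crest and directs glial and pigment fates, had 61.0 FPKM with ET-1 and 35.7 FPKM with PBS (fold 1.71, 1.61 to 1.81), and Tcfap2b, an AP-2 factor, had 26.4 FPKM with ET-1 and 17.7 FPKM with PBS (fold 1.49, 1.41 to 1.57). Sox9 had 22.3 FPKM with ET-1 and 21.8 FPKM with PBS, Foxd3 15.3 FPKM with ET-1 and 14.5 FPKM with PBS, and Pax3 37.0 FPKM with ET-1 and 34.8 FPKM with PBS, so these specifiers of the same list, chosen for mention after their values were seen, differed little. Zeb2, a zinc finger repressor of cadherin-1 in epithelial to mesenchymal transition, rose to 30.2 FPKM with ET-1, against 20.9 FPKM with PBS, which at 1.44-fold was the smallest called rise. Lbh, a transcription cofactor of limb bud and heart, had 46.4 FPKM with ET-1 and 26.7 FPKM with PBS, and Hmga2, a chromatin protein of growing embryonic cells, 208 FPKM with ET-1 and 137 FPKM with PBS.

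Receptors of the glial lineage rose with Sox10. Among 13 tested genes of glia and Schwann cell precursors 3 rose and 0 fell, beside 0.390% and 0.143% of all tested genes. The median log2 fold was 0.37, and 9 members were higher and 4 lower. With Bonferroni adjustment Gfra3 alone of the 3 stayed called. Gfra3, the artemin co-receptor, had 8.35 FPKM with ET-1 and 2.15 FPKM with PBS, a fold of 3.88 (3.07 to 4.95). Ngfr, the p75 neurotrophin receptor, had 39.0 FPKM with ET-1 and 23.4 FPKM with PBS, a fold of 1.67 (1.57 to 1.77). Erbb3, the neuregulin receptor on which Schwann cell precursors depend, had 31.7 FPKM with ET-1 and 20.1 FPKM with PBS, a fold of 1.58 (1.499 to 1.66). Cdh19, a cadherin of these precursors named after its values were seen, had 5.29 FPKM with ET-1 and 2.12 FPKM with PBS and missed the threshold. Mbp, a myelin gene, stood at 2.92 FPKM with ET-1 and 3.06 FPKM with PBS. A group value does not separate fewer cells of a type from less RNA per cell, here and in the results that follow.

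Neuronal genes lay on the other side. Among 20 tested genes of sensory and autonomic neurogenesis 0 rose and 1 fell. But 19 of the 20 had the lower value with ET-1, beside 7338 of all 15395 tested genes. The median log2 fold of -0.51 was the lowest of the lists with 8 or more tested members. Like the others, this list was chosen with earlier results of these data known, so its rank is description only. Dcx, the doublecortin gene of migrating young neurons, fell to 4.69 FPKM with ET-1, against 8.17 FPKM with PBS, a ratio of 0.575 (interval 0.535 to 0.617). It lies on the X chromosome from 140290385 to 140367854 (mm9). The most abundant members were Tubb3, a neuronal tubulin at 38.8 FPKM with ET-1 and 46.1 FPKM with PBS, Nhlh1 at 30.4 FPKM with ET-1 and 39.0 FPKM with PBS, and the proneural gene Neurog1 at 21.8 FPKM with ET-1 and 27.5 FPKM with PBS. Prdm12, a regulator of pain-sensing neurons, was the exception, with 6.40 FPKM with ET-1 and 5.90 FPKM with PBS. Among 19 tested Notch pathway genes 0 were called and 14 were lower with ET-1 (median -0.27), from Dlk1, an atypical ligand, at 6.11 FPKM with ET-1 and 10.6 FPKM with PBS, to Heyl at 15.8 FPKM with ET-1 and 11.8 FPKM with PBS. All 5 tested melanoblast genes had the higher value with ET-1 and none was called (median 0.25), with Mitf, the pigment cell master regulator, at 2.00 FPKM with ET-1 and 0.941 FPKM with PBS.

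**Figure D2:**
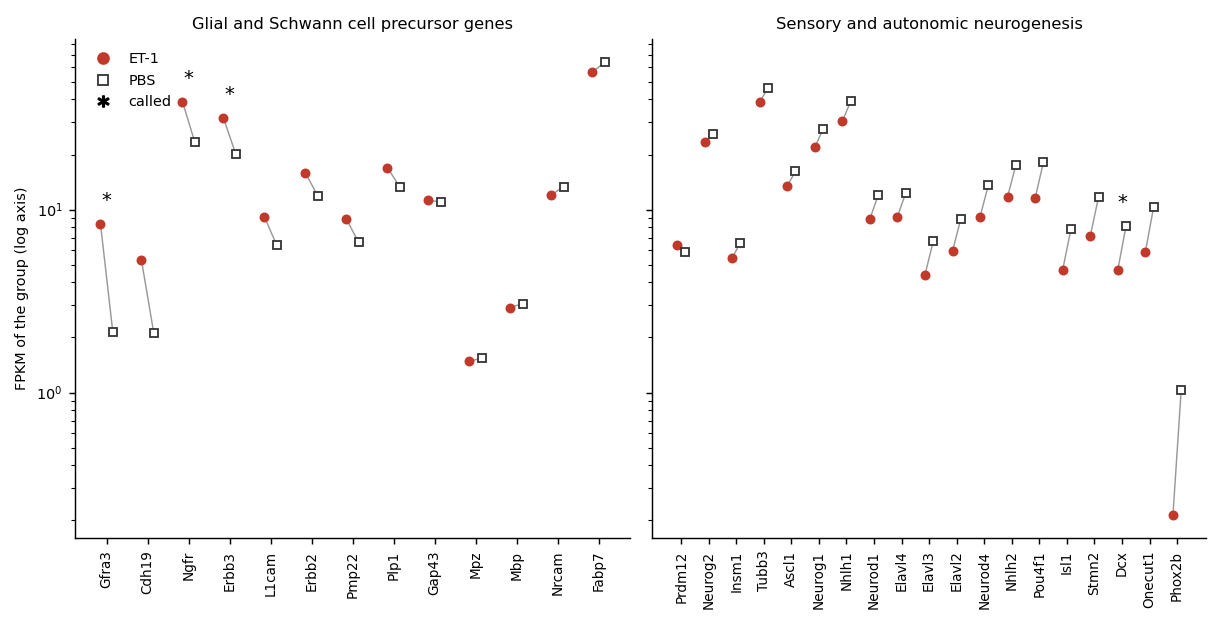
Group FPKM on a log axis for the 13 glial genes (left) and 19 of the 20 neurogenesis genes (right), each with ET-1 (filled red circle) left of PBS (open square), in order of log2 fold, with an asterisk over called genes. Gfra3, Ngfr and Erbb3 rose in the glial panel, and in the neuronal panel every gene shown but Prdm12 has the lower value with ET-1, of which Dcx was called.

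Arch patterning genes, which place skeletal identity along the jaw axis, gave no call. Only 5 of 16 ventral arch genes were tested (median log2 fold 0.035), with Msx1 at 28.6 FPKM with ET-1 and 27.8 FPKM with PBS and Msx2 at 11.3 FPKM with ET-1 and 9.90 FPKM with PBS. Of the other members, 10 were left out by the rule on whole numbers, 4 of them at 0 in both groups, and 1 was below 1 FPKM. Of 17 tested dorsal and intermediate arch genes 0 were called, 14 were lower and 3 higher with ET-1, and the median was -0.24. Alx1 had the highest log2 fold of that list, 0.58, at 2.09 FPKM with ET-1 and 1.06 FPKM with PBS. The 26 HOX genes had a median of -0.088 with 0 calls, and the most abundant, Hoxb9, stood at 106 FPKM with ET-1 and 108 FPKM with PBS.

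Matricellular genes formed one of the lists with the most rises. Of 13 tested genes for thrombospondins, CCN and other matricellular proteins, which bind matrix and cell surface receptors without being structural, 5 rose and 0 fell, 12 of 13 were higher with ET-1, and the median log2 fold of 0.39 was the highest of the lists with 8 or more tested members. Called rises were 0.390% of all tested genes. Lists and members were chosen with earlier results of these data known, so the rank of this list is description only. With Bonferroni adjustment Thbs1 and Thbs2 stayed called. Thbs1, an antiangiogenic activator of TGF-beta, had 13.8 FPKM with ET-1 and 3.48 FPKM with PBS, a fold of 3.96 (interval 3.57 to 4.40). The gene has 24 annotated exons and lies on chromosome 2 from 117937612 to 117952869 (mm9). Thbs2 had 21.7 FPKM with ET-1 and 9.83 FPKM with PBS (fold 2.21, 2.08 to 2.35), while Thbs3, named after its values were seen, had 9.86 FPKM with ET-1 and 9.46 FPKM with PBS. Ctgf (CCN2) had 36.2 FPKM with ET-1 and 20.5 FPKM with PBS, a fold of 1.77, and shares 17.2% of its sequence words of 50 bases with other genes. Cyr61 (CCN1) had 55.6 FPKM with ET-1 and 33.8 FPKM with PBS, a fold of 1.65 (1.54 to 1.76), and Sparc, a collagen-binding glycoprotein, 60.8 FPKM with ET-1 and 39.5 FPKM with PBS, a fold of 1.54. Fbln1, a fibulin, stood at 17.7 FPKM in both groups. Ctgf and Cyr61 are known targets of the YAP and TEAD regulators.

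Proteases of the cell surface and matrix gave calls in both directions. Among 32 tested ADAM, ADAMTS and MMP genes and their inhibitors there were 4 rises and 1 fall. Over all tested genes 0.390% rose and 0.143% fell. The median log2 fold of the list was 0.17, with 25 members higher and 7 lower. Adam12, a sheddase of fusing and migrating mesenchyme, had 15.6 FPKM with ET-1 and 6.29 FPKM with PBS, a fold of 2.48 (interval 2.31 to 2.66), and Adam19, which is needed in cardiac crest, 14.7 FPKM with ET-1 and 7.22 FPKM with PBS, a fold of 2.03. Adamts15, a proteoglycan-cleaving enzyme, had 3.74 FPKM with ET-1 and 1.45 FPKM with PBS, a fold of 2.58. Timp3, a matrix-bound inhibitor of these enzymes, had 25.3 FPKM with ET-1 and 14.4 FPKM with PBS, a fold of 1.76, and shares 21.4% of its words with other genes. Adamts20, known from belted mice for its part in melanoblast survival, fell to 5.96 FPKM with ET-1, against 10.3 FPKM with PBS, a ratio of 0.581 (0.538 to 0.626). Of structural genes, Col5a1, a chain of the collagen that starts fibrils, rose 2.05-fold to 12.1 FPKM with ET-1, against 5.91 FPKM with PBS, the only call among 21 tested collagens (median 0.041). Frem1, a basement membrane protein of the Fraser complex, fell to 1.72 FPKM with ET-1, against 3.21 FPKM with PBS, the only call among 15 laminins and basement membrane genes (median 0.16).

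**Figure D3:**
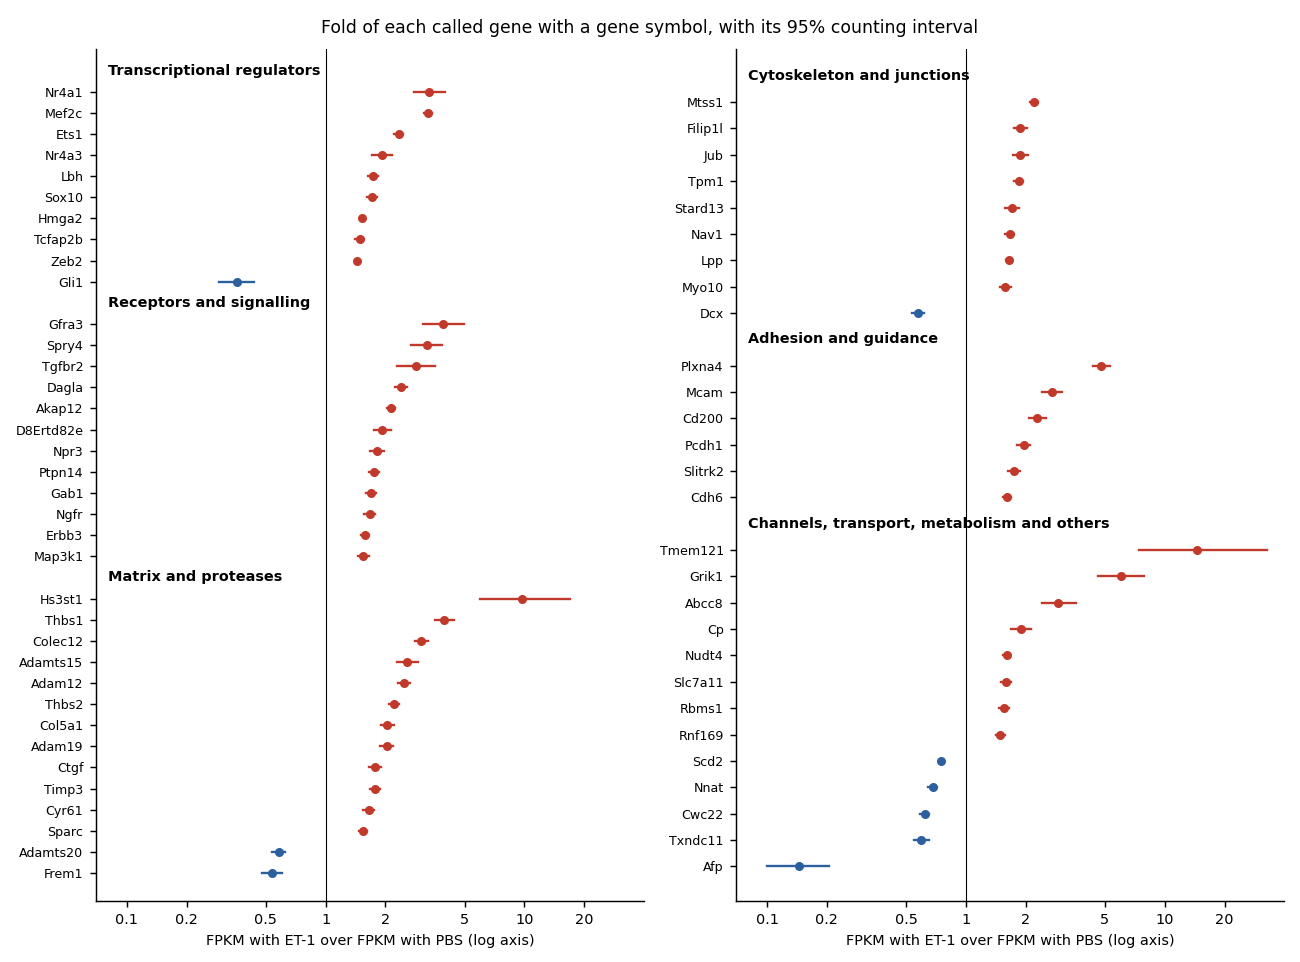
FPKM with ET-1 over FPKM with PBS on a log axis for the 55 rises (red) and 9 falls (blue) that carry a gene symbol, grouped by role, with horizontal bars for the exact 95% counting interval. Tmem121 at 14.6 and Hs3st1 at 9.78 have the largest ratios and wide intervals, and Afp has the lowest at 0.145. No bar reaches the line at 1, but only called genes are shown, so this is no separate support for the calls.

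Cell surface sugars and guidance receptors each gave 1 strong rise. Hs3st1, which adds a rare sulfate that lets heparan sulfate bind antithrombin, had 3.67 FPKM with ET-1 and 0.375 FPKM with PBS, a fold of 9.78 (interval 5.99 to 16.9) on 162 and 18 reads. It was the only call among 26 heparan sulfate enzymes, glypicans and syndecans, of which 22 were higher with ET-1 (median log2 fold 0.14), and the abundant Gpc3 stood at 81.7 FPKM with ET-1 and 82.5 FPKM with PBS. Plxna4, a plexin that transmits semaphorin signals in growing axons, had 9.62 FPKM with ET-1 and 2.01 FPKM with PBS, a fold of 4.79 (4.33 to 5.30) on 2116 and 480 reads. It lies on chromosome 6 from 32095926 to 32538192 (mm9). With p from the authors' deposited table, its adjusted p = 3.39e-27 was the lowest of all tested genes. An antisense model inside Plxna4 (AC153867.1, Plxna4os2) was also called, at 2.40 FPKM with ET-1 and 0.136 FPKM with PBS, and the sources used here do not say whether counting used strand, so the pair cannot be told apart. No other of 27 tested semaphorins, plexins and neuropilins was called (median 0.060), with Nrp2 at 36.9 FPKM with ET-1 and 45.9 FPKM with PBS. The 17 Slit, Robo and netrin genes had 0 calls (median -0.017).

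Adhesion molecules rose singly. Mcam (CD146), an immunoglobulin family receptor, had 15.7 FPKM with ET-1 and 5.82 FPKM with PBS, a fold of 2.71 (interval 2.41 to 3.04), and was the only call of 26 tested members of its list (median log2 fold -0.017). Cdh6, a cadherin of emigrating crest, had 34.2 FPKM with ET-1 and 21.3 FPKM with PBS, and Pcdh1 had 11.1 FPKM with ET-1 and 5.68 FPKM with PBS, both called among 21 cadherins and protocadherins (median -0.030), while Cdh2 stood at 40.7 FPKM with ET-1 and 37.7 FPKM with PBS. Cd200, an immune-restraining membrane glycoprotein, had 14.4 FPKM with ET-1 and 6.32 FPKM with PBS, a fold of 2.28. Colec12, a scavenger receptor with a collagen-like stalk, had 13.1 FPKM with ET-1 and 4.33 FPKM with PBS, a fold of 3.02 (2.80 to 3.26), the only call among 12 proteoglycan and hyaluronan genes (median -0.0018). Slitrk2, a leucine-rich repeat synaptic organizer, had 38.8 FPKM with ET-1 and 22.2 FPKM with PBS. No integrin was called among 11 tested (median 0.15).

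Among 30 tested actin and contractile genes 2 rose and 0 fell, beside 0.390% and 0.143% of all tested genes. With ET-1, 27 were higher and 3 lower (median log2 fold 0.28). Tpm1, an alpha-tropomyosin that stabilizes filaments, had 29.97 FPKM with ET-1 and 16.2 FPKM with PBS, a fold of 1.84 (interval 1.75 to 1.94), and Filip1l, a filamin-interacting protein, 14.2 FPKM with ET-1 and 7.58 FPKM with PBS, a fold of 1.88. The actins themselves, Actb at 689 FPKM with ET-1 and 722 FPKM with PBS and Actg1 at 376 FPKM with ET-1 and 442 FPKM with PBS, were 2 of the 3 lower members. Further rises in no list had roles at junctions and filaments. Mtss1, which couples membrane curvature to actin, had 28.7 FPKM with ET-1 and 13.1 FPKM with PBS, a fold of 2.20 (2.11 to 2.30). Jub (AJUBA), a LIM protein of junctions that binds the Hippo kinase LATS, had 21.1 FPKM with ET-1 and 11.2 FPKM with PBS, and Ptpn14, a phosphatase that restrains YAP, 12.4 FPKM with ET-1 and 7.10 FPKM with PBS. Lpp, a LIM protein of focal adhesions, had 17.8 FPKM with ET-1 and 10.8 FPKM with PBS. Myo10, a filopodial myosin, had 12.4 FPKM with ET-1 and 7.89 FPKM with PBS, and Stard13, a GTPase-activating protein, 9.67 FPKM with ET-1 and 5.69 FPKM with PBS. Nav1, a neuron navigator of microtubule ends, had 9.10 FPKM with ET-1 and 5.48 FPKM with PBS.

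Channels, transporters and enzymes completed the rises. Tmem121, a transmembrane protein gene, had the largest fold of the genes with a symbol, 14.6 (interval 7.44 to 32.7), at 3.88 FPKM with ET-1 and 0.266 FPKM with PBS on 121 and 9 reads. Grik1, a kainate receptor subunit, had 2.76 FPKM with ET-1 and 0.460 FPKM with PBS, a fold of 6.01 (4.63 to 7.90), the only call among 37 tested channels and neurotransmitter receptors (median log2 fold 0.0475). Abcc8, the sulfonylurea receptor, had 2.63 FPKM with ET-1 and 0.901 FPKM with PBS, and its adjusted p = 0.0415 from the authors' deposited table was the rise nearest the threshold together with Lpp and Tcfap2b. Slc7a11, the cystine and glutamate exchanger, had 12.7 FPKM with ET-1 and 7.99 FPKM with PBS, the only call among 21 amino acid transporters (median 0.22) and among 18 glutathione and NRF2 target genes (median -0.069). Cp, the copper ferroxidase ceruloplasmin, had 4.63 FPKM with ET-1 and 2.43 FPKM with PBS. Nudt4, a hydrolase of inositol pyrophosphates, had 102 FPKM with ET-1 and 63.6 FPKM with PBS. The last named rises were D8Ertd82e (PRAG1, a pseudokinase), Rbms1, an RNA-binding protein, and Rnf169, a ubiquitin-binding DNA repair protein, with folds of 1.93, 1.55 and 1.49.

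**Figure D4:**
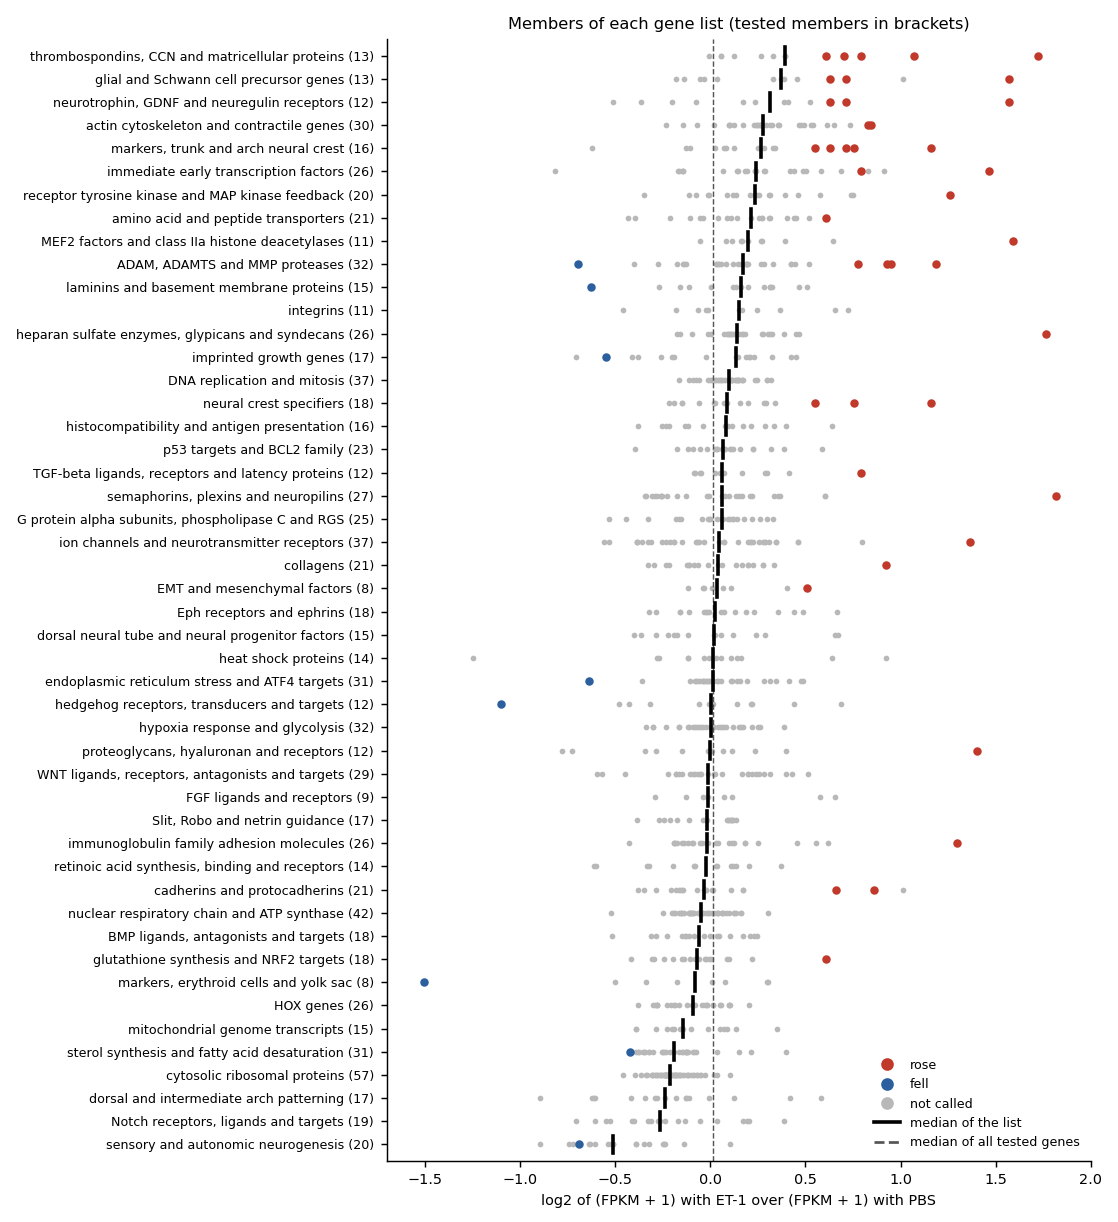
Log2 fold, ET-1 over PBS, of every tested member of the lists with at least 8 tested members, ordered by the list's median (black bar), with called rises in red, called falls in blue and other members in grey. The matricellular list is at the top with a median of 0.39, the neurogenesis list is at the bottom with -0.51, and the dashed line shows the median of all tested genes, 0.014. Lists and members were chosen with earlier results of these data known.

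The falls among genes with a symbol were fewer. Gli1, the transcription factor that reads out hedgehog signalling, fell to 1.72 FPKM with ET-1, against 4.83 FPKM with PBS, a ratio of 0.356 (interval 0.289 to 0.437) on 127 and 387 reads. The gene lies on chromosome 10 from 126766945 to 126778645 (mm9). It was the only call of 12 tested hedgehog genes, whose median log2 fold was 0.0041. Other direct targets of the pathway, named after their values were seen, were uncalled, with Ptch1 at 28.4 FPKM with ET-1 and 35.6 FPKM with PBS and Hhip at 3.73 FPKM with ET-1 and 5.37 FPKM with PBS. The co-receptor genes Cdon, at 43.4 FPKM with ET-1 and 31.7 FPKM with PBS, and Boc, at 34.3 FPKM with ET-1 and 29.5 FPKM with PBS, had log2 folds above 0. Kif7, a hedgehog transducer, had 19.04 FPKM with ET-1 and 11.4 FPKM with PBS but a p = 0.597 in the authors' deposited table.

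Afp, the alpha-fetoprotein gene of yolk sac and fetal liver, fell to 0.452 FPKM with ET-1, against 3.12 FPKM with PBS, a ratio of 0.145 (interval 0.0993 to 0.206) on 36 and 270 reads. It was the only call of 8 tested erythroid and yolk sac markers, and the others did not lie to 1 side, with Hbb-y at 10.5 FPKM with ET-1 and 15.2 FPKM with PBS, and Hba-x at 9.37 FPKM with ET-1 and 7.44 FPKM with PBS. The part of other cells in the Afp value was not tested. Nnat, the imprinted neuronatin gene, fell to 74.4 FPKM with ET-1, against 109 FPKM with PBS, and no other of 17 imprinted growth genes was called (median log2 fold 0.14). Txndc11, a thioredoxin-fold protein of the endoplasmic reticulum, fell to 4.54 FPKM with ET-1, against 7.61 FPKM with PBS, the only call among 31 genes of reticulum stress (median 0.012). Scd2, a stearoyl-CoA desaturase, fell to 169 FPKM with ET-1, against 226 FPKM with PBS, a ratio of 0.747 (0.733 to 0.761). It was the weakest called fall, and the only call of 31 sterol and fatty acid genes, of which 27 were lower with ET-1 (median -0.19).

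Many of the remaining falls were sequences with close copies. How the authors' counting treated reads shared between copies was not tested. Cwc22, a splicing factor gene, fell to 19.7 FPKM with ET-1, against 31.8 FPKM with PBS, with 18.5% of its words shared with other genes. On chromosome 2, between 83795850 and 83833780 in build mm9, 7 clone-named models fell, 6 of them of equal length with starts 5810 bases apart and the other one overlapping the last of these. The 6 had 13.1 FPKM with ET-1 and 28.8 to 29.0 FPKM with PBS, so they count as repeats of 1 observation rather than as independent falls. The mutant with ET-1 had 1.02 to 1.03 FPKM in these 6. The source of these differences between the groups was not tested, and a response to ET-1 cannot be told apart from other differences between the groups' embryos. The pseudogene models AC153627.2 (Gm13864, 77.0% of words shared) and AC147366.1 (Rpl7a-ps3, 84.5% shared) fell to 18.7 and 49.3 FPKM with ET-1, against 79.1 and 85.3 FPKM with PBS. The last 4 falls, models with no entry in the annotation used here, were AC121580.1, AC155934.2, AC124807.3 and CT010467.2, the most abundant, at 455 FPKM with ET-1 and 752 FPKM with PBS. Among the clone-named rises were 3 mitochondrial tRNAs, with mt-Tq at 270 FPKM with ET-1 and 67.7 FPKM with PBS, out of 22 tested mitochondrial tRNAs with a median log2 fold of -0.16. The antisense model AC131800.1 (Gm15420), with 27.4% of its words shared, had 11.8 FPKM with ET-1 and 0.866 FPKM with PBS on 75 and 6 reads.

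Growth and housekeeping families gave no call. All 57 ribosomal protein genes were tested and 54 were lower with ET-1, with a median log2 fold of -0.21, from Rps28 at 541 FPKM with ET-1 and 742 FPKM with PBS to Rpl7a at 485 FPKM with ET-1 and 451 FPKM with PBS. The 37 DNA replication and mitosis genes had a median of 0.099, with 30 higher and 7 lower, and Mki67, the proliferation antigen, had 97.3 FPKM with ET-1 and 93.5 FPKM with PBS. Hypoxia and glycolysis genes (32 tested, median 0.00235), nuclear respiratory chain genes (42, -0.0495), p53 targets and BCL2 family genes (23, 0.069) and heat shock genes (14, 0.0125) also had 0 calls. Hspa1a, an inducible heat shock gene, had the lowest log2 fold among these, -1.24, at 1.15 FPKM with ET-1 and 4.10 FPKM with PBS. In all, 28 of the 56 lists held no called gene, 21 held a rise and 8 a fall, and 28 of the rises lay in none of them.

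The study also asked which responses depend on Mef2c, and the mutant values can be set beside those of wild type for the same genes, although the mutant had no PBS arm and shares the ET-1 wild-type samples as its comparator. Mef2c itself had 25.2 FPKM in wild type with ET-1, 10.1 FPKM in the mutant with ET-1 and 7.71 FPKM in wild type with PBS, and a value over the whole model does not show the loss of an exon. Tmem121 had 3.88 FPKM in wild type with ET-1, 0.230 FPKM in the mutant with ET-1 and 0.266 FPKM in wild type with PBS. Hs3st1 had 3.67, 0.669 and 0.375 FPKM in that order of groups, and Grik1 2.76, 0.750 and 0.460 FPKM. Intermediate values were held by Plxna4, with 9.62 FPKM in wild type with ET-1, 4.59 FPKM in the mutant and 2.01 FPKM with PBS, and by Colec12, with 13.1, 6.47 and 4.33 FPKM. In contrast, Thbs1 had 13.8 FPKM in wild type with ET-1, 16.1 FPKM in the mutant and 3.48 FPKM with PBS, Gfra3 had 8.35, 8.15 and 2.15 FPKM, and Mcam had 15.7, 16.7 and 5.82 FPKM. Nr4a3 was at 12.8 FPKM in the mutant, above the 7.26 FPKM of wild type with ET-1 and the 3.77 FPKM with PBS. Dcx was at 4.69 FPKM in wild type with ET-1, 8.77 FPKM in the mutant and 8.17 FPKM with PBS, whereas Gli1 was at 1.72 FPKM in wild type with ET-1, 1.72 FPKM in the mutant and 4.83 FPKM with PBS.

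**Figure D5:**
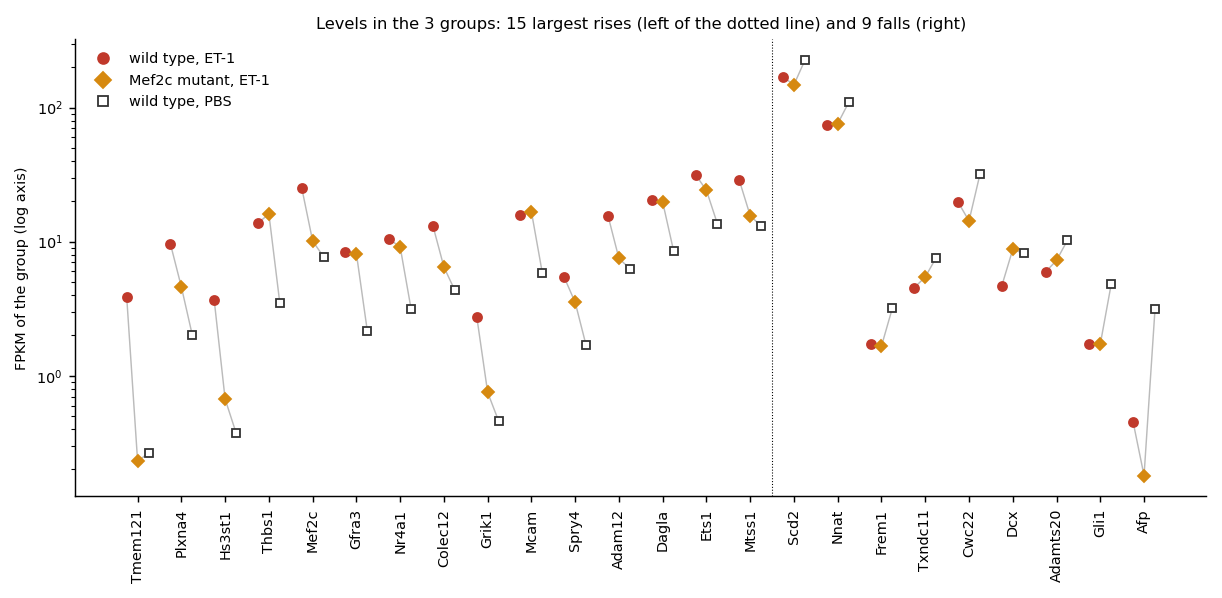
Group FPKM on a log axis for the 15 largest rises by log2 of FPKM + 1 and the 9 falls with a gene symbol, each as wild type with ET-1 (red circle), mutant with ET-1 (orange diamond) and wild type with PBS (open square). The mutant lies beside PBS for Tmem121 and beside wild type with ET-1 for Thbs1, and for Dcx it lies beside PBS.

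A list of induced genes in the authors' deposited table held 406 genes, with a largest unadjusted p of 0.05 and a smallest normalized fold of 1.20. All 60 rises were on it, and they made up 14.8% of it. The list rests on the same p-values and group levels at looser limits, so this overlap is no separate support for the rises. There, 338 genes (83.3%) were marked by the authors as holding a MEF2 motif and 73 (17.98%) as dependent on Mef2c, by criteria not given in the sources used here. Among the 60 rises 45 (75.0%) were marked for the motif and 19 (31.7%) for dependence in the authors' deposited table. Of the 15 largest rises with a symbol, ranked by log2 of FPKM + 1, 10 were marked dependent in the authors' deposited table, namely Tmem121, Plxna4, Hs3st1, Mef2c, Colec12, Grik1, Spry4, Adam12, Ets1 and Mtss1, and the other 5, Thbs1, Gfra3, Nr4a1, Mcam and Dagla, were not. Ranked by the plain ratio of FPKM, where Abcc8, Tgfbr2 and Adamts15 take the places of Dagla, Ets1 and Mtss1, the counts were 9 and 6. Calls and ranks use the same wild-type ET-1 samples with which the mutant was compared. A gene picked for a high value there is thus favoured to be marked dependent, and these shares are description only.

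Calls were made over the whole range of levels. Among 1799 tested genes that peaked between 1 and 2 FPKM 1 rose, Tgfbr2, and the median gene there rested on 62 reads with ET-1 and 64 with PBS. Between 20 and 50 FPKM, where the median gene rested on 2165 reads with ET-1 and 2298 with PBS, 20 of 2568 rose and 9 fell, and the smallest called rise was 1.44-fold. Between 2 and 5 FPKM the smallest called rise was 1.90-fold. At 100 FPKM or more 5 of 699 rose and 4 fell. At the edge of the threshold stood Scd2 inside, with an adjusted p = 0.0489, and Syde1 outside, with 0.0559, both from the p given in the authors' deposited table. Syde1 had 15.1 FPKM with ET-1 and 8.69 FPKM with PBS. At the filter on levels, CT009576.3 (1.00 FPKM with ET-1 and 0.838 FPKM with PBS) was kept and Nap1l3 (0.819 FPKM with ET-1 and 1.00 FPKM with PBS, just under the limit) was not. Without adjustment, 384 genes were higher and 310 lower with ET-1 at p under 0.05 in the authors' deposited table.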

How the data were processed

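RNA of sorted neural crest cells from 9 samples in 3 groups of 3 was amplified and sequenced, per the labels' protocols. The submitters' processing notes name TopHat 1.3.1, Cufflinks 1.3.0, Cuffdiff and mm9. How the replicates of a group were combined is not stated in any source used here. The deposited table held, per the file headers, 1 FPKM value per group and the authors' unadjusted p-value for ET-1 against PBS. A second table by the authors held a normalized fold (a ratio) for induced genes. A test on samples was planned, but only group values were held, so the authors' p-values were adjusted instead by the Benjamini-Hochberg method over the 15395 tested genes. Left out were 2461 genes below 1 FPKM in both groups and 15639 rows of whole numbers with a deposited p-value of 1. The log2 fold uses a pseudocount of 1 FPKM and understates the change of low genes. Whether the deposited p-values hold the spread between embryos is not known.

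Pooled reads were recovered from FPKM steps of single-exon genes (whole within 0.02 for 93.7% of values with ET-1 and 93.6% with PBS), for 17838 of 17856 genes, and checked on simulated data. For models with no annotated exon length, reads are known only up to a whole-number factor, and the simulation held no such model. Exact Clopper-Pearson 95% intervals cover counting error only. They treat reads as independent, which amplified reads are not, so they can be too narrow even for that error. Shared sequence is the share of a gene's 50-base words found in other genes of GENCODE M21. Python 3.11.15, pandas 2.3.3, numpy 2.4.6 and scipy 1.17.1 were used. Genes were named if called, and for a list with under 2 calls also its 3 most abundant tested members and its extremes, with exceptions stated. The gene lists, like the comparison, were chosen with earlier results of these data known. There were 0 columns of other samples. Alternatives were the filter, the pseudocount, the adjustment, a fold limit, centring and protein-coding genes alone, the last chosen after seeing the data. A few list members are counted but not reported here by name.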

Additional observations from a re-analysis of the deposited data

How the results depend on the processing

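The 60 rises and 22 falls became 60 and 21 without the filter on low levels, where Scd2 was lost (adjusted p = 0.0567 from the authors' deposited table), and 55 and 20 with the filter set at 5 FPKM. With Bonferroni adjustment 29 rose and 13 fell, and with a fold of at least 2 required 27 rose and 11 fell. Both counts of falls include the 7 chromosome 2 models, which are not independent. Among protein-coding genes alone (added after seeing the data) 55 rose and 11 fell. The median log2 fold of all tested genes lay between 0 and 0.0251 under these settings. Bonferroni adjustment left 2 of the 5 matricellular calls, 2 of the 5 crest marker calls, 3 of the 5 protease calls and 1 of the 3 glial calls, and 0 in the cadherin and hedgehog lists. No called gene changed direction, but some list medians changed sign, 8 with the filter at 5 FPKM, 5 with centring and 1 with a pseudocount of 0.1. At 5 FPKM the medians were -0.63 for mesodermal markers (0.28 as reported), 0.30 for erythroid and yolk sac markers (-0.082) and -0.061 for ion channels (0.0475), with fewer members tested. The pseudocount and centring play no part in the calls. No paired analysis was possible because the table held 1 value per group and the groups share no replicate numbers, and for the same reason leaving out single samples could not be run. Genes on few reads have wide counting intervals, such as 7.44 to 32.7 for the fold of Tmem121, and no error between embryos can be given.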
